A study of Mus musculus with 6 samples.

Results

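The genes analysed here carry out the transport and oxidation of fatty acids in mitochondria and peroxisomes, and they were read from an RNA-Seq experiment on WT and *Bdh2*-knockout mouse advanced embryonic stem cells (ASCs). They are 43 of the 54715 genes in the count table, taken by gene name from a list of 8 genes of carnitine transport, 19 genes of mitochondrial oxidation, 13 genes of peroxisomal oxidation and 3 regulators. All 43 names were found in the table, each once. ASCs are pluripotent cells held in a state that lies between naïve embryonic stem cells and primed epiblast stem cells. Both genotypes descend from a 129/sv female crossed with a GOF/GFP male, carry GFP under the control of the *Oct4* promoter and distal enhancer, and were kept in the same medium with activin A, BMP4, the inhibitor CHIR99021 and leukemia inhibitory factor. The WT group holds 3 libraries and the *Bdh2*-/- group holds 3 libraries. The knockout was made with Cas9 and a pair of guide RNAs near the start codon, and the study took a single ASC clone with a deletion on both alleles into its later experiments. The labels do not say which clone was sequenced or whether libraries of a genotype came from separate cultures, so the p-values below measure only the spread between these libraries, which may be technical, and an effect of the knockout and an effect of 1 clone cannot be told apart.

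Long-chain fatty acids enter mitochondria as carnitine esters, which are made by carnitine palmitoyltransferase 1 on the outer membrane, moved inward by a carnitine-acylcarnitine carrier and turned back into acyl-CoA by carnitine palmitoyltransferase 2. In the matrix each turn of beta-oxidation removes an acetyl-CoA through a dehydrogenase, a hydratase, a second dehydrogenase and a thiolase, and the electrons pass through the electron transfer flavoprotein to ubiquinone. Peroxisomes shorten very long and branched chains with enzymes of their own, remove a single carbon from branched chains by alpha-oxidation, and import these enzymes with the receptors PEX5 and PEX7. BDH2 belongs to ketone body metabolism, which draws on acetyl-CoA and lies next to fatty acid oxidation.

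The counts assigned to genes totalled between 18927748 and 28333541 per library, and 3 counts, taken as the smallest level this depth can show, correspond to 0.106 to 0.158 CPM, the counts scaled to an equal library size. This limit covers counting error only. *Bdh2* was found at 10.5, 9.56 and 8.27 normalized CPM in the WT libraries (replicates 1, 2 and 3, an order kept throughout) and at 5.95, 4.99 and 5.38 in the knockout libraries, with no overlap between the genotypes (log2 fold change -0.79, standard error 0.12, edgeR adjusted p = 2.46e-04). Normalized CPM are counts scaled to library totals corrected by edgeR's TMM method. The pluripotency genes *Pou5f1*, *Sox2* and *Nanog* were high in all libraries, with at least 1389, 356 and 312 normalized CPM. Of 12 listed pluripotency genes, all tested, 7 were called higher and 1 lower in knockout ASCs, with log2 fold changes from -0.19 to 0.66. That is 58.3% higher and 8.33% lower, beside 21% and 20.8% of all tested genes. With a covariate for hepatocyte transcripts, described below, 3 were called higher and 1 lower, beside 15.8% and 14.7% of all tested genes. The median log2 fold change was 0.18 over all libraries and 0.07 with WT ASC replicate 3 as the only WT library. Markers of adult hepatocytes, a cell type the labels do not name, were also counted, and their summed level was 662, 396 and 48.7 CPM in the WT libraries and 35.8, 171 and 19.8 CPM in the knockout libraries. Of 28 tested hepatocyte markers 22 were called lower in knockout ASCs, although for 0 of the 28 did the genotypes separate without overlap. 0 of the 30 listed markers were at 0 in all libraries. Of 18 tested primitive endoderm markers 15 were called higher, beside 21% of all tested genes, and 2 lower (*Hnf4a* and *Ttr*, with log2 fold changes of -0.47 and -2.25). With a covariate for hepatocyte transcripts 16 of these primitive endoderm markers were called higher and 0 lower, beside 15.8% and 14.7% of all tested genes. The summed level of these markers ranged from 411 to 453 CPM in WT ASCs and from 890.5 to 998 CPM in *Bdh2*-knockout ASCs. In bulk RNA fewer cells of a type and less RNA per cell cannot be told apart.

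Measured per length of transcript, most of these genes were expressed at moderate levels in ASCs. The highest in WT ASCs was *Etfa*, a subunit of the electron transfer flavoprotein, with 143 ± 5.96 TPM (transcripts scaled by length and to an equal total; SD, n = 3), followed by *Eci1*, an enoyl-CoA isomerase, with 92.2 ± 6.63 TPM and *Acadm*, the medium-chain acyl-CoA dehydrogenase, with 71.9 ± 0.685 TPM. In the peroxisomal group the phytanoyl-CoA hydroxylase gene *Phyh* led with 67.6 ± 1.18 TPM, and *Pecr*, *Hsd17b4* and *Pex5* had 61.3 ± 4.30, 60.2 ± 1.58 and 58.3 ± 7.004 TPM. Carnitine transport was lower, with *Cpt1a* at 37.1 ± 4.19 TPM and *Cpt2* at 23.6 ± 1.51 TPM at its head. At the other end stood 5 genes under 1 TPM in both genotypes, namely *Hacl1*, *Ppara*, *Cpt1b*, *Abcd2* and *Ppargc1a*. The TPM rest on the gene lengths of the count table, which join the annotated exons of a gene, so that genes with long rarely used exons are understated. These lengths are those of GENCODE M21 for 40 of the 43 members within 1%, but *Cpt1a*, *Eci1* and *Decr2* are listed with 4300, 1091 and 2288 bases against 7642, 2127 and 2653 there. On the longer lengths *Cpt1a* would have 20.9 TPM, below *Cpt2*, and *Eci1* 47.3 TPM in WT ASCs, so that their places in this order are uncertain. Summed over the members of a group, mitochondrial oxidation had 708 ± 14.5 TPM in WT and 666 ± 23.7 TPM in *Bdh2*-knockout ASCs, peroxisomal oxidation 405 ± 9.77 and 373 ± 9.96 TPM, and carnitine transport 115 ± 4.54 and 104 ± 2.24 TPM (SD, n = 3).

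**Figure D1:**
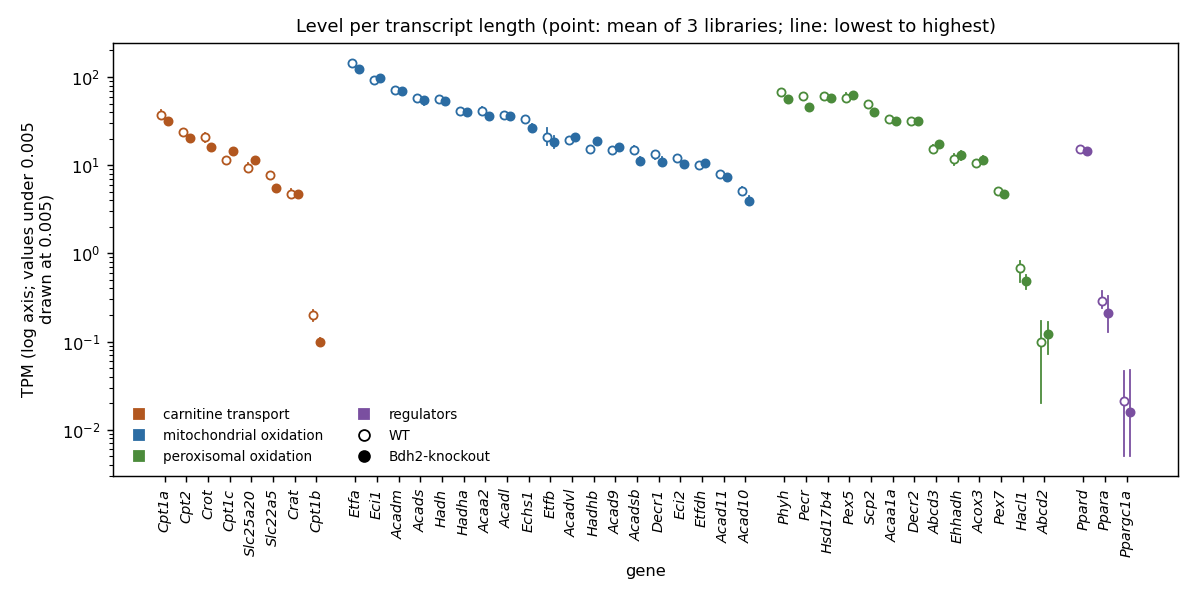
Level of each of the 43 genes in TPM (log axis) by group, with open points for the mean of 3 WT libraries, filled points for the mean of 3 *Bdh2*-knockout libraries and lines from the lowest to the highest library. Values under 0.005 are drawn at 0.005, and 5 genes lie under 1 TPM in both genotypes.

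Of the 43 genes 39 had enough counts to be tested, and 17 of them were called, 4 higher and 13 lower in *Bdh2*-knockout ASCs (adjusted p under 0.05 in the quasi-likelihood test of edgeR, adjusted by Benjamini-Hochberg over 16758 genes). That is 43.6% of the tested members, beside 41.7% of all tested genes. In the upward direction it is 10.3% of the members beside 21% of all tested genes, and in the downward direction 33.3% beside 20.8%. The largest change of a called member was a log2 fold change of -0.47, and 0 of the called members reached 0.5 in size. The median log2 fold change of the tested members was -0.06, and that of all tested genes was -0.01. By group, 6 of 7 tested genes of carnitine transport were called (2 higher, 4 lower, median -0.21), 7 of 19 of mitochondrial oxidation (1 higher, 6 lower, median -0.08), 4 of 12 of peroxisomal oxidation (1 higher, 3 lower, median -0.05) and 0 of 1 tested regulator. The 3 WT libraries and the 3 knockout libraries did not overlap for 21 of the 39 members, 6 higher and 15 lower, which is 53.8% beside 52.4% of all tested genes (26.3% higher and 26.1% lower). Of these 21, *Acadvl*, *Acad9*, *Hadh*, *Acaa2* and *Pex7* were not called.

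**Figure D2:**
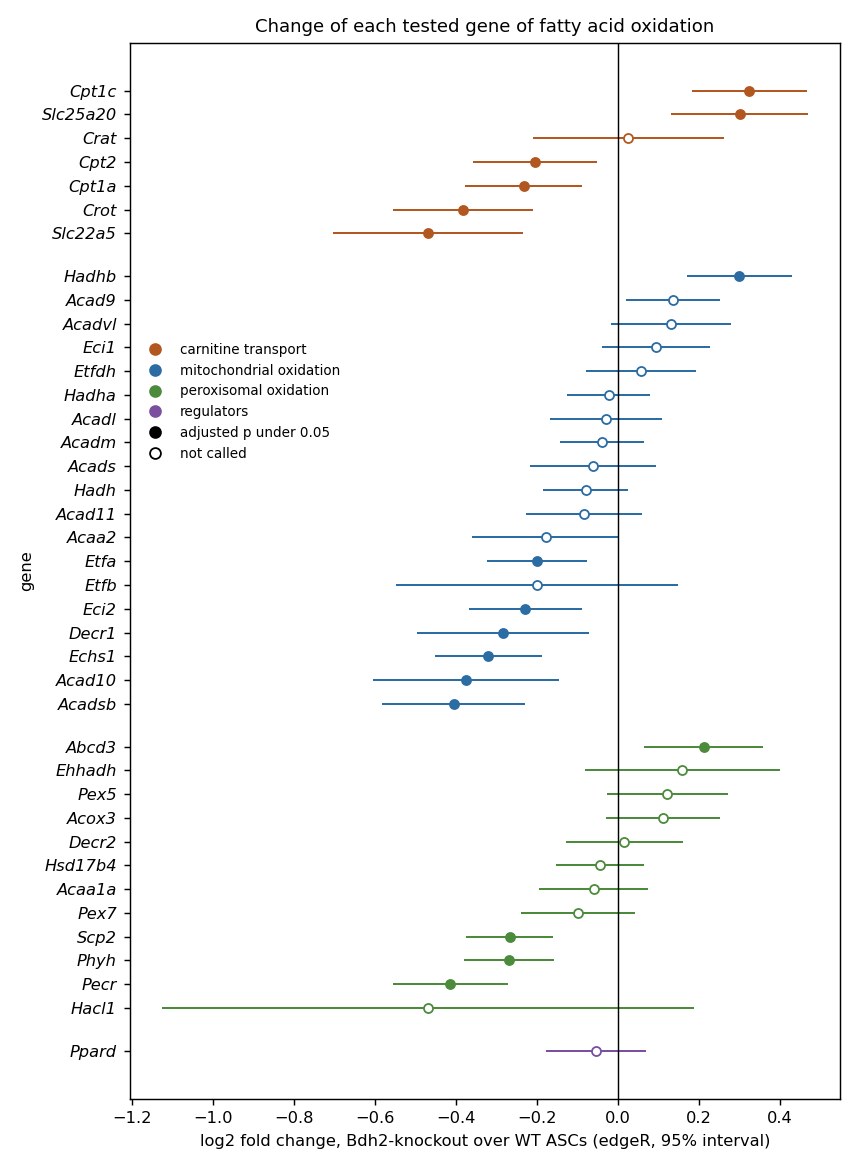
Log2 fold change of *Bdh2*-knockout over WT ASCs for the 39 tested genes, by group, with 95% intervals derived from the edgeR fit. Filled points are called at an adjusted p under 0.05 and open points are not. The values run from -0.47 for *Slc22a5* and *Hacl1* to 0.32 for *Cpt1c*, with 4 filled points right of 0 and 13 left of it.

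**Figure D3:**
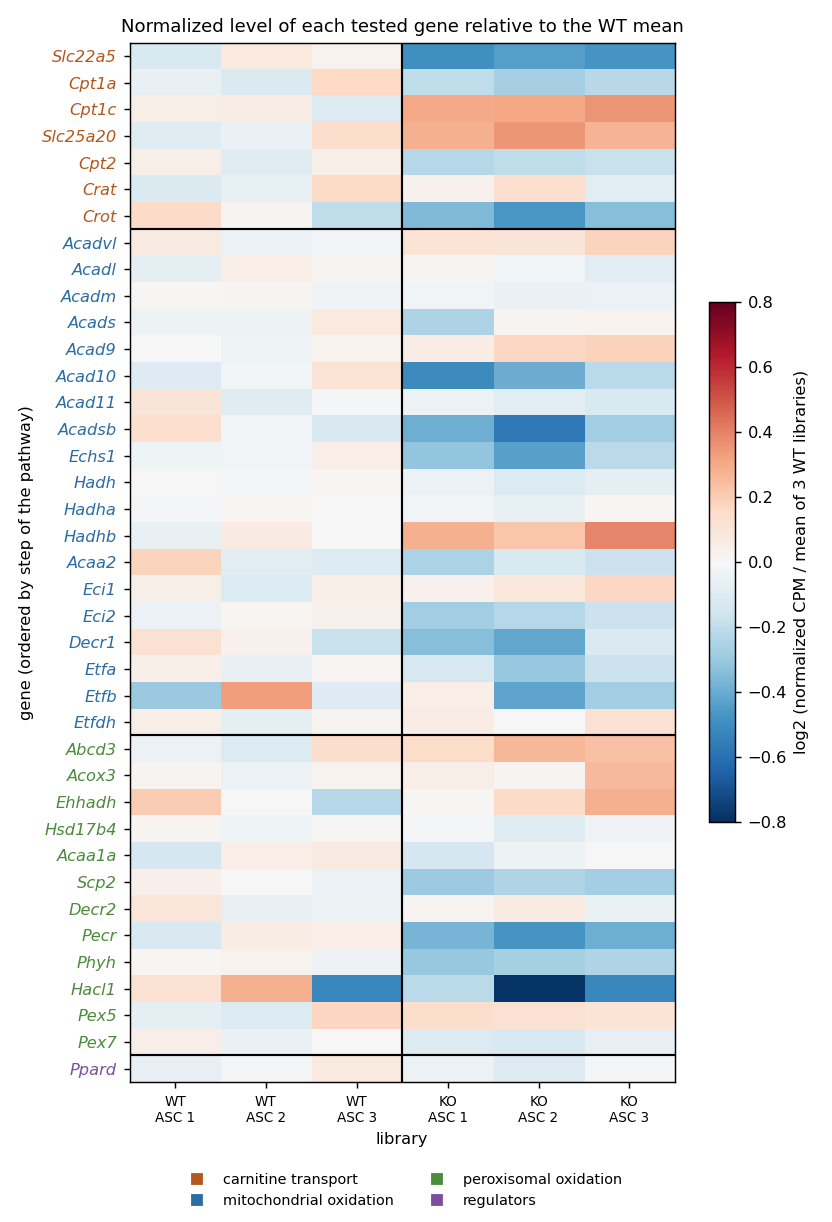
Normalized CPM of the 39 tested genes in each of the 6 libraries, as log2 of the ratio to the mean of the 3 WT libraries, ordered by step of the pathway, with gene names coloured by group. The knockout columns are blue in all 3 libraries for *Slc22a5*, *Crot*, *Acadsb*, *Echs1*, *Scp2*, *Pecr* and *Phyh*, and red in all 3 for *Cpt1c*, *Slc25a20* and *Hadhb*.

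Within carnitine transport the genes moved in both directions. *Cpt1a* (ENSMUSG00000024900, chr19:3323301-3385732, plus strand), which encodes the rate-limiting carnitine palmitoyltransferase of most tissues, had 51.8, 49.8 and 60.4 normalized CPM in WT and 46.8, 45.0 and 46.4 in *Bdh2*-knockout ASCs. All knockout libraries lay below all WT libraries, and WT ASC replicate 3 was the highest (log2 fold change -0.23, standard error 0.07, edgeR adjusted p = 0.0135). Without *Bdh2*-knockout ASC replicate 2 this call was lost (edgeR adjusted p = 0.0544), and without WT ASC replicate 3 the log2 fold change was -0.14 (edgeR adjusted p = 0.0471). *Cpt1c* (ENSMUSG00000007783, chr7:44959372-44974851, minus strand), a paralog best known from neurons whose product resides in the endoplasmic reticulum, had 22.6, 22.8 and 20.3 normalized CPM in WT and 27.0, 27.1 and 28 in knockout ASCs. The genotypes separated in the opposite direction to *Cpt1a* (log2 fold change 0.32, standard error 0.07, edgeR adjusted p = 0.00163). Per length, *Cpt1c* made up 23.7 ± 2.94% of the summed *Cpt1a*, *Cpt1b* and *Cpt1c* transcripts in WT and 31.2 ± 0.560% in knockout ASCs (SD, n = 3). The shares did not overlap, and the exact permutation test gave p = 0.1, two-sided, the smallest that 3 against 3 libraries allow (adjusted p = 0.15 over the 3 ratios compared). The size of the share depends on the length used. With the exon lengths of GENCODE M21, an alternative chosen after seeing the data, it was 35.5 ± 3.75% in WT and 44.6 ± 0.642% in knockout ASCs, again without overlap. *Cpt1b*, the muscle form, was counted only 5, 4 and 6 times in WT and 3, 3 and 3 times in knockout ASCs, was not tested, and shares 81.4% of its exon bases with the overlapping gene *Gm44502* on the same strand.

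The bases upstream of *Cpt1a* and *Cpt1c* are shown because these paralogs were called in opposite directions. They come from RefSeq (GRCm38.p6), run 5′ to 3′ along each gene from 250 bases before its start site to 10 bases after it, and carry in capitals the letters CCAAT or, on the other strand, ATTGG. The *Cpt1a* stretch is chr19:3323051-3323310 on the plus strand and the *Cpt1c* stretch chr7:44974842-44975101 on the minus strand. GENCODE M21 starts *Cpt1a* at chr19:3322334, upstream of the RefSeq start used here, so the *Cpt1a* stretch lies within the gene annotated there. Distances below are to the RefSeq start sites.
Cpt1a: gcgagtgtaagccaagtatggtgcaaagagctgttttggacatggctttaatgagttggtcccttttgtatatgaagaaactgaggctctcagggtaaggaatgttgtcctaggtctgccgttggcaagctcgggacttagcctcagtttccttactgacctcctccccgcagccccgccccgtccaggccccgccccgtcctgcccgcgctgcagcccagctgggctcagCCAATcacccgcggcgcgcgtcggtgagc
Cpt1c: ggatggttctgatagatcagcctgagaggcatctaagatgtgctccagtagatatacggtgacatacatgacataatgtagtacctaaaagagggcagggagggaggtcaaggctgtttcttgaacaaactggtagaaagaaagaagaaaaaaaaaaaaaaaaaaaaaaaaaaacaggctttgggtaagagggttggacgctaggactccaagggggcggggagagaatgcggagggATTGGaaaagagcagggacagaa
Each stretch holds 1 match, which begins 19 bases before the start site of *Cpt1a* and 13 bases before that of *Cpt1c*. The same letters occur in 37.4% of all 32851 promoter windows of 300 bases. A match describes the letters and shows no binding.

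The carrier that brings acylcarnitines across the inner membrane, *Slc25a20*, was called higher, with 14.4, 14.9 and 17.0 normalized CPM in WT and 18.8, 19.7 and 18.7 in knockout ASCs (log2 fold change 0.30, standard error 0.08, edgeR adjusted p = 0.00795). Its partner on the matrix side went the other way. *Cpt2* had 19.7, 17.9 and 19.7 normalized CPM in WT and 16.3, 16.6 and 16.9 in knockout ASCs (log2 fold change -0.21, standard error 0.07, edgeR adjusted p = 0.0326). The *Cpt2* call was the least firm of the group, since it held in 1 of the 6 fits that left out a library, namely the one without WT ASC replicate 2, and its adjusted p reached 0.124 without *Bdh2*-knockout ASC replicate 1. *Slc22a5*, the plasma membrane carnitine transporter, showed the largest decrease of any called member, from 7.42, 8.52 and 8.23 normalized CPM in WT to 5.73, 5.94 and 5.80 in knockout ASCs (log2 fold change -0.47, standard error 0.11, edgeR adjusted p = 0.00401). The knockout level was 72.3% of the WT level. Of its 50-base stretches 27.1% also occur in transcripts of other genes, mainly *Slc22a21*, so part of its reads may have been counted elsewhere or not at all. *Crot*, the peroxisomal carnitine octanoyltransferase, decreased from 43.1, 39.3 and 33.7 to 30.3, 28.1 and 30.5 normalized CPM (log2 fold change -0.38, standard error 0.08, edgeR adjusted p = 0.00201). For *Crot* the WT libraries followed the order of their hepatocyte transcripts, with WT ASC replicate 3 closest to the knockout libraries. Among the knockout libraries, *Bdh2*-knockout ASC replicate 2 had the most hepatocyte transcripts of the 3 and the lowest *Crot*. With these transcripts as a covariate the log2 fold change of *Crot* was -0.27 (edgeR adjusted p = 0.0316). With WT ASC replicate 3 as the only WT library it was -0.19. The part of hepatocyte transcripts in the *Crot* decrease was not tested. The carnitine acetyltransferase gene *Crat*, with a mean of 8.58 normalized CPM in WT and 8.75 in knockout ASCs, overlapped between the genotypes (log2 fold change 0.03, 95% interval -0.21 to 0.26).

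**Figure D4:**
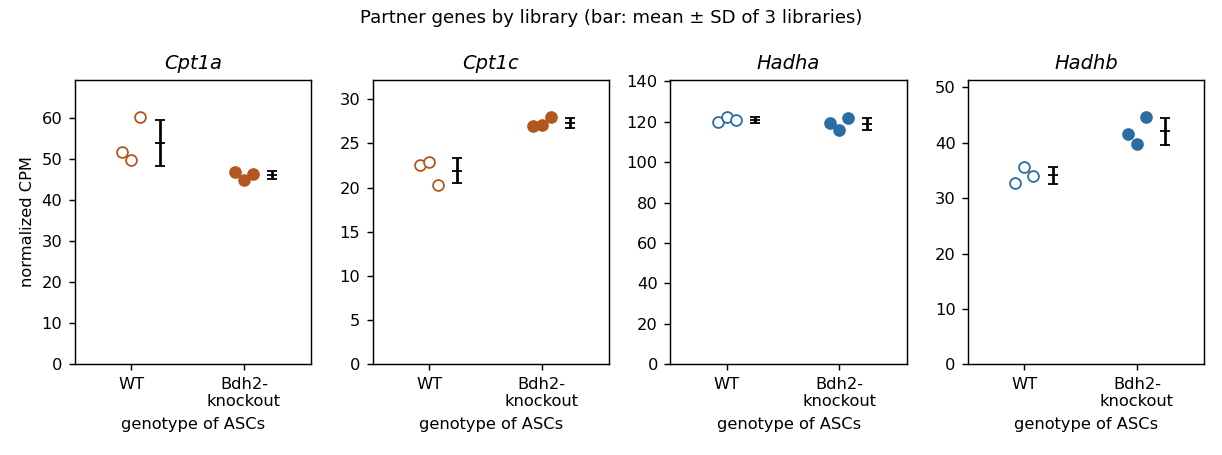
Normalized CPM of *Cpt1a*, *Cpt1c*, *Hadha* and *Hadhb* in each library, with open points for WT and filled points for *Bdh2*-knockout ASCs and bars for the mean ± SD of 3 libraries. *Cpt1a* is lower and *Cpt1c* and *Hadhb* are higher in all 3 knockout libraries, and *Hadha* overlaps between the genotypes.

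Of the 8 acyl-CoA dehydrogenases, which catalyse the first step of each turn, 2 were called, both lower, beside 41.7% of all tested genes, and the difference in share was not tested. *Acadsb*, which acts on short branched chains from isoleucine, decreased from 39.8, 35.6 and 33.2 to 27.6, 24.4 and 29.8 normalized CPM (log2 fold change -0.41, standard error 0.08, edgeR adjusted p = 0.00161). *Acad10*, a less studied member of the family, had a mean of 10.5 ± 0.790 normalized CPM in WT and 8.17 ± 0.859 in knockout ASCs (SD, n = 3; log2 fold change -0.38, edgeR adjusted p = 0.0128). Its call was lost without WT ASC replicate 3 (edgeR adjusted p = 0.0501) and without *Bdh2*-knockout ASC replicate 1 (edgeR adjusted p = 0.0699), and 18.6% of its 50-base stretches are shared, mainly with *Acad12*. The dehydrogenases of the straight-chain substrates did not pass the test. *Acadvl*, for very long chains, had 18.4, 16.9 and 17.3 normalized CPM in WT and 18.9, 18.8 and 19.9 in knockout ASCs (log2 fold change 0.13, 95% interval -0.02 to 0.28, edgeR adjusted p = 0.146). Because 42.9% of the exon bases of *Acadvl* lie opposite *Dvl2* and the strand setting of the counting is not given in the sources used here, these reads cannot be assigned with certainty. *Acadm* had 95.8, 96.9 and 93.4 normalized CPM in WT and 93.8, 92.0 and 92.5 in knockout ASCs, a log2 fold change of -0.04 with a 95% interval from -0.14 to 0.07. This is one of the narrowest intervals among the members. *Acadl* and *Acads*, for long and short chains, had log2 fold changes of -0.03 and -0.06 and overlapped between the genotypes, as did *Acad11* with -0.08. *Acad9*, which also helps to assemble respiratory complex I, had 41.4, 40.3 and 42.0 normalized CPM in WT and 42.97, 46.3 and 46.8 in knockout ASCs, without overlap but not called (log2 fold change 0.14, edgeR adjusted p = 0.0574). It was called without WT ASC replicate 3 (edgeR adjusted p = 0.04997) and without *Bdh2*-knockout ASC replicate 1 (edgeR adjusted p = 0.0303).

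Among the enzymes of the later steps, the genes of the mitochondrial trifunctional protein differed from each other. This complex joins the hydratase and long-chain dehydrogenase of its alpha subunit to the thiolase of its beta subunit. *Hadha* (ENSMUSG00000025745, chr5:30118304-30155162, minus strand), the alpha subunit, had 119.6, 122 and 121 normalized CPM in WT and 119, 116 and 122 in knockout ASCs (log2 fold change -0.02, 95% interval -0.13 to 0.08). *Hadhb* (ENSMUSG00000059447, chr5:30155248-30184593, plus strand), the beta subunit, had 32.7, 35.7 and 34.0 normalized CPM in WT and 41.6, 39.8 and 44.7 in knockout ASCs (log2 fold change 0.30, standard error 0.06, edgeR adjusted p = 0.00154). *Hadhb* was called in all 6 fits that left out a library, with log2 fold changes from 0.27 to 0.34. The ratio of *Hadhb* to *Hadha* per length was 0.374 ± 0.0122 in WT and 0.468 ± 0.0160 in knockout ASCs (SD, n = 3), with the 3 knockout libraries above the 3 WT libraries (two-sided exact permutation p = 0.1, the smallest possible, adjusted p = 0.15). The genes lie head to head and are transcribed away from each other. The 85 bases between their annotated starts, at chr5:30155163-30155247 of GRCm38.p6 on the plus strand, are shown because 1 stretch of DNA separates a gene that was called from a partner that was not, with the 9 CG dinucleotides in capitals (RefSeq sequence, GENCODE M21 gene ends).
Hadha-Hadhb: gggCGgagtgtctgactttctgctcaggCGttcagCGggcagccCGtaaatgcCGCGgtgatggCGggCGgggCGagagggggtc

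Of the other later enzymes, *Echs1*, the short-chain enoyl-CoA hydratase, decreased from 91.7, 92.6 and 97.7 normalized CPM in WT to 75.7, 69.6 and 80.9 in knockout ASCs (log2 fold change -0.32, standard error 0.06, edgeR adjusted p = 0.00105). *Hadh*, the short-chain hydroxyacyl-CoA dehydrogenase, ranged from 93.6 to 95.8 normalized CPM in WT and from 87.8 to 91.7 in knockout ASCs and was not called (log2 fold change -0.08, edgeR adjusted p = 0.206). The thiolase gene *Acaa2* was not called either, with a log2 fold change of -0.18 and an adjusted p of 0.105 from edgeR. Without WT ASC replicate 1 its log2 fold change was -0.082 (edgeR adjusted p = 0.419), and with the hepatocyte covariate it was -0.067. *Hadh* and *Acaa2* were called lower when libraries were scaled to their totals without TMM (edgeR adjusted p = 0.0344 and 0.0406). The auxiliary enzymes that prepare unsaturated chains gave 2 calls of 3, beside 41.7% of all tested genes, and nothing is read from a count this small. *Eci2*, an enoyl-CoA isomerase found in mitochondria and peroxisomes, had means of 22.8 ± 0.656 and 19.5 ± 0.717 normalized CPM (SD, n = 3; log2 fold change -0.23, edgeR adjusted p = 0.0125), and *Decr1*, the dienoyl-CoA reductase, 17.4 ± 1.83 and 14.3 ± 1.599 (log2 fold change -0.28, edgeR adjusted p = 0.0335). *Decr1* was the only called member whose genotypes overlapped, and it was called in 2 of the 6 fits that left out a library, those without WT ASC replicate 3 and without *Bdh2*-knockout ASC replicate 3, while its adjusted p reached 0.140 without *Bdh2*-knockout ASC replicate 2. *Eci2* lost its call without *Bdh2*-knockout ASC replicate 1 (edgeR adjusted p = 0.0736). *Eci1* had a log2 fold change of 0.09 with overlapping genotypes.

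The electron transfer flavoprotein takes electrons from the acyl-CoA dehydrogenases of the first step. *Etfa*, its alpha subunit, decreased from 91.1, 85.2 and 89.8 normalized CPM in WT to 81.1, 71.9 and 78.7 in knockout ASCs (log2 fold change -0.20, standard error 0.06, edgeR adjusted p = 0.0138), a call that was lost without *Bdh2*-knockout ASC replicate 2 (edgeR adjusted p = 0.0821). *Etfb*, the beta subunit, was fitted at -0.20 with a 95% interval from -0.55 to 0.15 and was not called, and its libraries ranged from 6.75 to 10.5 normalized CPM in WT and from 6.20 to 8.60 in knockout ASCs. Without WT ASC replicate 2 the fitted value was -0.0075, without *Bdh2*-knockout ASC replicate 2 it was -0.096, and over all 6 fits that left out a library it reached -0.34. Of its exon bases 58.2% overlap other genes, mainly *Gm45233* on the same strand, so its counts may be incomplete. The ratio of *Etfa* to *Etfb* per length was 7.04 ± 1.72 in WT and 6.88 ± 0.779 in knockout ASCs (two-sided exact permutation p = 0.8). *Etfdh*, the ubiquinone oxidoreductase that receives these electrons, had a log2 fold change of 0.06 with a 95% interval from -0.08 to 0.19.

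In peroxisomal oxidation the called decreases were in *Pecr*, *Phyh* and *Scp2*. *Pecr* (ENSMUSG00000026189, chr1:72259167-72284314, minus strand), which encodes the peroxisomal trans-2-enoyl-CoA reductase, had 29.0, 32.8 and 32.7 normalized CPM in WT and 24.3, 22.7 and 24.0 in knockout ASCs. Its knockout level was 75.2% of the WT level (log2 fold change -0.41, standard error 0.07, edgeR adjusted p = 0.0003005), and it was called in all 6 fits that left out a library. *Phyh* (ENSMUSG00000026664, chr2:4919019-4938730, plus strand), which starts the alpha-oxidation of phytanic acid, had 43.8, 44.2 and 42.1 normalized CPM in WT and 35.2, 36.0 and 36.6 in knockout ASCs (log2 fold change -0.27, standard error 0.05, edgeR adjusted p = 0.00110). *Scp2* (ENSMUSG00000028603, chr4:108043839-108144998, minus strand), the thiolase for branched chains and a sterol carrier, had 59.4, 58.0 and 55.9 normalized CPM in WT and 47.1, 48.9 and 47.8 in knockout ASCs (log2 fold change -0.27, standard error 0.05, edgeR adjusted p = 9.00e-04). For each of the 3 genes the gap between the genotypes exceeded the spread within each. Of the 50-base stretches of *Scp2* 41.4% also occur in the pseudogene transcript *Scp2-ps2*, and how reads with several matches were treated is not given in the sources used here.

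*Abcd3*, the most abundant peroxisomal ABC transporter of these cells among the members, was called higher, from 32.9, 31.6 and 37.6 to 37.7, 40.9 and 40.0 normalized CPM (log2 fold change 0.21, standard error 0.07, edgeR adjusted p = 0.0238). WT ASC replicate 3 and *Bdh2*-knockout ASC replicate 1 differed by less than the spread within either genotype, and the call was lost in 4 of the 6 fits that left out a library, those without WT ASC replicate 1 or 2 or without *Bdh2*-knockout ASC replicate 2 or 3 (edgeR adjusted p from 0.0601 to 0.0983). *Abcd2* was counted 4, 7 and 1 times in WT and 7, 4 and 8 times in knockout ASCs and was not tested. Several enzymes of peroxisomal chain shortening were not called. The bifunctional enzyme gene *Ehhadh* had 13.5, 11.7 and 10.1 normalized CPM in WT and 11.9, 13.1 and 14.4 in knockout ASCs (log2 fold change 0.16, 95% interval -0.08 to 0.40). Its log2 fold change was 0.052 without WT ASC replicate 3 and 0.27 without WT ASC replicate 1. It was 0.31 with the hepatocyte covariate and 0.38 with WT ASC replicate 3 as the only WT library. *Hsd17b4*, the second bifunctional enzyme, which takes branched chains as well, had 70.5, 68.0 and 69.9 normalized CPM in WT and 69.0, 64.9 and 68.1 in knockout ASCs (log2 fold change -0.05, 95% interval -0.15 to 0.06). The thiolase gene *Acaa1a* had 45.0, 51.3 and 52.0 normalized CPM in WT and 45.1, 48.0 and 49.4 in knockout ASCs (log2 fold change -0.06, 95% interval -0.19 to 0.07). All of these overlapped between the genotypes, as did the oxidase gene *Acox3* with a log2 fold change of 0.11 and the reductase gene *Decr2* with 0.02. *Hacl1*, the lyase of alpha-oxidation, had only 0.792 to 1.39 normalized CPM in WT and 0.660 to 0.980 in knockout ASCs. The 95% interval of its log2 fold change (-0.47) ran from -1.13 to 0.19, and 33.3% of its exon bases overlap other genes, mainly *Gm49387* on the same strand.

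The import receptors differed little. *Pex5*, the receptor for most matrix enzymes, had 73.6, 72.1 and 87.7 normalized CPM in WT and 85.9, 84.6 and 84.0 in knockout ASCs (log2 fold change 0.12, edgeR adjusted p = 0.172). WT ASC replicate 3 stood above all other libraries, and without it *Pex5* was called higher (log2 fold change 0.22, edgeR adjusted p = 0.00294). *Pex7*, which imports *Phyh* and *Acaa1a* products among a few others, had 21.8, 20.2 and 20.9 normalized CPM in WT and 19.4, 19.3 and 20.03 in knockout ASCs, without overlap but not called (log2 fold change -0.10, edgeR adjusted p = 0.243).

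Of the regulators only *Ppard* could be tested. This nuclear receptor for fatty acids had 36.7, 38.1 and 40.6 normalized CPM in WT and 37.3, 35.8 and 38.3 in knockout ASCs (log2 fold change -0.05, 95% interval -0.18 to 0.07). *Ppara*, the receptor that drives these genes in liver, was counted 6, 10 and 8 times in WT and 12, 6 and 4 times in knockout ASCs. *Ppargc1a*, the coactivator of mitochondrial biogenesis, was counted 2, 0 and 1 times in WT and 3, 0 and 0 times in knockout ASCs, at or under the 3 counts that set the limit of detection. Neither gene passed the filter on low counts, and no difference was tested.

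The other genes of the pathway were read from lists compiled with earlier results of these data known. Of 41 other genes of acyl-CoA metabolism 37 were tested, 5 were called higher and 17 lower, which is 13.5% higher and 45.9% lower beside the 21% and 20.8% of all tested genes given above; their median was -0.23 on the log2 scale. With a covariate for hepatocyte transcripts 2 were called higher and 13 lower, beside 15.8% and 14.7% of all tested genes. With 1 WT library (replicate 3) against the 3 knockout libraries 2 were called higher and 15 lower, beside 13.2% and 11.4%, and the median was -0.13. The called genes of largest size were *Mlycd*, the malonyl-CoA decarboxylase that relieves the inhibition of carnitine palmitoyltransferase 1 (log2 fold change -0.87, edgeR adjusted p = 1.59e-04), *Etfbkmt*, a methyltransferase of the electron transfer flavoprotein (-0.84, edgeR adjusted p = 6.26e-04), and the thiolase gene *Acaa1b* (-0.73, edgeR adjusted p = 0.0345). *Mlycd* decreased from 8.09, 10.4 and 8.98 to 5.26, 4.47 and 5.34 normalized CPM. *Acaa1b* overlapped between the genotypes and lost its call with a covariate for hepatocyte transcripts (log2 fold change -0.34, edgeR adjusted p = 0.399). Of 24 other peroxisome genes, all tested, 3 were called higher and 5 lower, with a median of -0.09. That is 33.3% of them beside 41.7% of all tested genes. With the covariate 2 were called higher and 4 lower, beside 15.8% and 14.7% of all tested genes. With 1 WT library the median of this list was -0.09. The called genes of largest size were *Pex11a*, a factor of peroxisome division (-0.51, edgeR adjusted p = 0.00226), *Pex2*, a subunit of the ubiquitin ligase that recycles PEX5 (0.41, edgeR adjusted p = 0.00979), and the membrane protein gene *Pxmp2* (-0.37, edgeR adjusted p = 0.00904).

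Of 20 other regulators 19 were tested, 6 were called higher and 1 lower, and the median was 0.05 on the log2 scale. The calls make up 36.8% of this list, beside 41.7% of all tested genes, with 31.6% higher beside 21% and 5.26% lower beside 20.8%. With the covariate 2 were called higher and 1 lower, beside 15.8% and 14.7% of all tested genes, and with 1 WT library the counts were again 2 and 1. *Sirt1*, an NAD-dependent deacetylase that acts on the *Ppargc1a* product, had 78.4, 78.1 and 78.3 normalized CPM in WT and 127.6, 128.5 and 129.3 in knockout ASCs (log2 fold change 0.72, standard error 0.05, edgeR adjusted p = 2.85e-07). *Rxrg*, a partner of the PPAR receptors, was called higher, with means of 0.839 and 1.37 normalized CPM (0.71, edgeR adjusted p = 0.0432), a call that held in 1 of the 6 fits that left out a library. *Sirt3*, the mitochondrial deacetylase of beta-oxidation enzymes, was called lower (-0.49, edgeR adjusted p = 4.29e-04). Of 21 genes known as targets of PPAR receptors 16 were tested, 2 were called higher and 7 lower, and the median was -0.25 on the log2 scale. The share called was 56.2% (12.5% higher and 43.8% lower), beside the same background. With the covariate 1 was called higher and 5 lower with a median of -0.16, beside 15.8% and 14.7% of all tested genes. With 1 WT library the median was -0.01, which is the value of *Acadm*, a gene of this list, in that fit. This list holds *Cpt1a*, *Acadm* and *Ehhadh*, which are described above. Among its called genes were *Fabp1*, the liver fatty acid binding protein (log2 fold change -1.9995, edgeR adjusted p = 0.0403), and *Fgf21*, a secreted hormone (-1.77, edgeR adjusted p = 0.00142). *Fabp1* had 5.82, 3.32 and 0.594 normalized CPM in WT and 0.363, 1.83 and 0.125 in knockout ASCs, in the same order of libraries as the hepatocyte markers, and its call held in 2 of the 6 fits that left out a library, with log2 fold changes from -3.63 to -1.26. *Fgf21* had 0.773, 0.991 and 0.989 normalized CPM in WT and 0.327, 0.257 and 0.209 in knockout ASCs, without overlap. With hepatocyte transcripts as a covariate the log2 fold change of *Fabp1* was 0.23 and that of *Fgf21* was -1.88 (edgeR adjusted p = 0.695 and 0.00386).

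Because hepatocyte transcripts separated libraries of the same genotype, the members were read again with the mean log2 CPM of the hepatocyte markers as a covariate. In this fit 30.6% of all tested genes were called (15.8% higher and 14.7% lower), and 13 of the 17 members called without it were still called. The calls of *Slc25a20*, *Cpt2*, *Decr1* and *Abcd3* were lost (log2 fold changes of 0.23, -0.22, -0.22 and 0.15 with the covariate against 0.30, -0.21, -0.28 and 0.21 without it, edgeR adjusted p = 0.0808, 0.0839, 0.190 and 0.189), 2 members were called higher, 11 were called lower, and all 17 kept their direction. *Pecr*, *Echs1*, *Cpt1a* and *Slc22a5* had log2 fold changes of -0.48, -0.40, -0.34 and -0.50 with the covariate, and *Hadhb* and *Cpt1c* of 0.26 and 0.38. The 28 tested hepatocyte markers ranged from -2.67 to -1.45 without the covariate and from -0.32 to 0.94 with it, as the covariate is the mean of these same markers, so that this shift is set by its construction and says nothing about the members. When WT ASC replicates 1 and 2 were left out, so that 1 WT library was compared with 3 knockout libraries and was assumed to vary as these do, 24.6% of all tested genes were called (13.2% higher and 11.4% lower). 11 of the 17 members were still called, with *Slc25a20*, *Cpt2*, *Crot*, *Acadsb*, *Decr1* and *Abcd3* lost and *Ehhadh* newly called higher. Among the lost calls, the log2 fold changes of *Slc25a20*, *Crot*, *Decr1* and *Abcd3* moved by over 1.5 times, to 0.16, -0.19, -0.12 and 0.07, while *Cpt2* and *Acadsb* were at -0.25 and -0.29. The change of *Cpt1a* became larger in size, from -0.23 to -0.39, as did that of *Ehhadh*, from 0.16 to 0.38. All 17 kept their direction. Scaling to library totals gave 42.9% of all tested genes called (16.3% higher and 26.6% lower), and 3 members higher and 15 lower. With DESeq2, which called 30.5% of its tested genes, 14 of the 17 calls remained, and those of *Cpt2*, *Eci2* and *Decr1* were lost (DESeq2 adjusted p = 0.164, 0.0795 and 0.0791). The summed level of the primitive endoderm markers was higher in each knockout library than in each WT library, and the part of such cells or transcripts in the changes of the members was not tested.

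**Figure D5:**
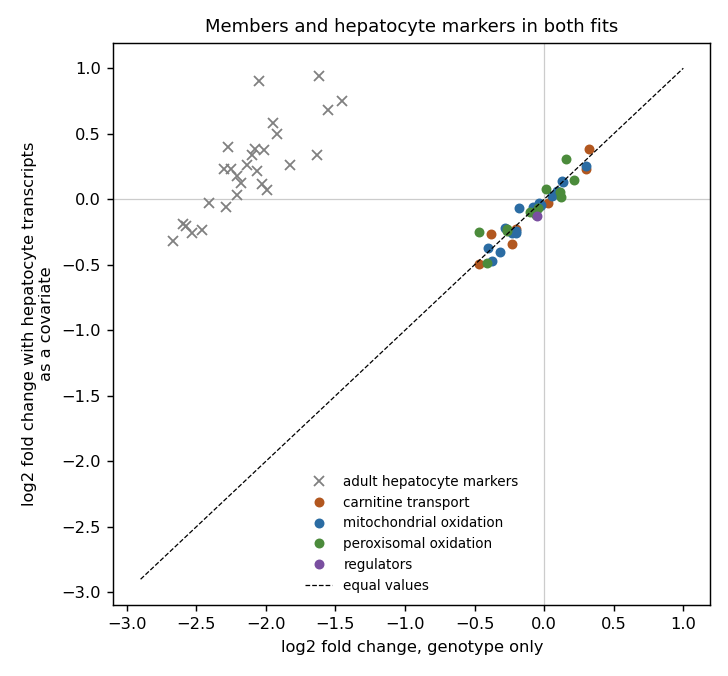
Log2 fold change of the 39 tested members and of 28 adult hepatocyte markers in the fit with genotype alone (horizontal axis) and with hepatocyte transcripts as a covariate (vertical axis); the dashed line marks equal values. The members lie near the line, and the hepatocyte markers lie above it, between -0.32 and 0.94 on the vertical axis, as follows from their use as the covariate.

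RefSeq promoter windows, from 250 bases before to 50 bases after a start site, were matched for 36 of the 43 members. They were searched on both strands for elements that receptors and factors of this pathway are known to bind. The direct repeat of AGGNCA with 1 base between its copies, as PPAR and RXR receptors bind it, was in 0 of the 36 and in 0.381% of all windows, and the element TCAAGGTCA of estrogen-related receptors was in 0 and in 0.423%. The letters GCGCATGCG, bound by nuclear respiratory factor 1, were in the windows of 4 members, *Acadm*, *Acad10*, *Etfdh* and *Ppara*, and in 1.75% of all windows. CCAAT was in 16 members and in 37.4% of all windows. Of the 4 members with the GCGCATGCG letters *Ppara* was not tested, *Acad10* was called lower and *Acadm* and *Etfdh* were not called. The absence of a match says only that these letters are not in this window.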

How the data were processed

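RNA of 3 WT and 3 *Bdh2*-knockout ASC libraries was sequenced. The authors mapped reads to GRCm38 with HISAT2 (version 2.0.5 per the labels), counted them on genes with FeatureCounts and deposited raw counts of 54715 genes with a length and position each. The annotation release and the strand and multi-mapping settings are not given in the sources used here. GENCODE M21 holds 99.4% of the identifiers, and 39 of the 43 members have the same start and end there. CPM and TPM were computed here from the counts deposited by the authors.

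Counts were tested in R 4.3.3 with edgeR 4.0.16 by its quasi-likelihood test with TMM scaling, filterByExpr defaults and genotype alone in the model, at a Benjamini-Hochberg adjusted p under 0.05 over 16758 genes. The authors used DESeq2, which served here (version 1.42.0) as an alternative, beside limma 3.58.1 (voom). Standard errors were computed here as the size of the log2 fold change divided by the square root of the F statistic of the quasi-likelihood test. The 95% intervals were computed from them with the t distribution. Ratios were compared with two-sided exact permutation tests. The functions were checked on simulated counts. Alternatives changed the test, the scaling, the filter (none, or a mean count of at least 50), the libraries used, the block on replicate number and a hepatocyte covariate (mean of log2 of CPM plus 1 over the markers). FPKM took the place of TPM as an alternative for levels. GENCODE M21 exon lengths, tried for the *Cpt1c* share, were an alternative chosen after seeing the data.

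All 43 members were to be named. Values per library were to be given for *Cpt1a*, *Cpt2*, *Acadvl*, *Acadm*, *Hadha*, *Hadhb*, *Ehhadh*, *Hsd17b4*, *Acaa1a*, *Pex5*, *Pex7*, *Ppara*, *Ppard* and *Ppargc1a*, for untested members and for called members at or past 0.5 on the log2 scale in either direction, and in each list of other genes the 3 largest called genes were named. A result that this rule would name is not reported here. Other genes with values per library were chosen after their values were seen. The members and all lists were chosen with earlier results of these data known. Overlap of exons and shared stretches of 50 bases were computed from GENCODE M21, and promoters came from RefSeq. Fibroblast and blood markers were also read, and 2 of 7 and 1 of 1 tested were called lower. Same-numbered replicates deviated from their genotype means with correlations across genes of -0.16, 0.05 and 0.21, so the numbers were not taken to pair libraries.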

Additional observations from a re-analysis of the deposited data

How the results depend on the processing

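The 17 called members kept their direction under DESeq2, other scalings, limma-voom, other filters, the block, the covariate and each left-out library. With limma-voom, median-of-ratios factors and a mean count of at least 50 all 17 stayed called. Left-out libraries gave 12 to 15 of them, 5613 to 7409 of all tested genes, 4 to 6 genes of carnitine transport, 3 to 6 members higher and 9 to 12 lower. Medians of the left-out fits ran from -0.25 to -0.14 for carnitine transport and from -0.059 to -0.028 for peroxisomal oxidation. With library totals, which shift the median of all tested genes to -0.07, the medians were -0.26 (carnitine), -0.14 (mitochondrial), -0.11 (peroxisomal) and -0.12 (all members). With the hepatocyte covariate they were -0.082 (peroxisomal), -0.13 (regulators) and -0.088 (all), and 2 members were higher. With 1 WT library, 4386 of all genes and 3 of carnitine transport were called, and the medians were -0.13 (regulators) and -0.10 (all). This fit also held fewer libraries, and whether that accounts for the fewer calls was not tested.

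Reversals concerned genes that were not called. *Crat* was at -0.032 with library totals, -0.030 with the covariate and -0.13 with 1 WT library. *Etfdh* was at -0.00064 and *Decr2* at -0.043 with library totals, and *Hacl1* at 0.034 and *Pex5* at -0.051 with 1 WT library. Leaving out libraries took *Crat* from -0.027 to 0.12, *Acadl* from -0.066 to 0.011, *Acads* from -0.10 to 0.038, *Hadha* from -0.030 to 0.00020 and *Decr2* from -0.014 to 0.066. The cause was not tested. The replicate block called 6452 genes (38.5%) and 16 of the 17 members, *Cpt2* having an adjusted p of 0.0633. At this depth *Ppara*, *Ppargc1a*, *Cpt1b* and *Abcd2* had no library above 12 counts and were not tested. With GENCODE M21 exon lengths, chosen after seeing the data, the *Cpt1c* share moved to 35.5% in WT and 44.6% in knockout ASCs.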

Other observations

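The genes that carry propionyl-CoA, the end product of odd-numbered and branched chains, into the citric acid cycle were not described above; they were chosen after their values were seen, from the list of other acyl-CoA genes. *Pcca*, the alpha subunit of propionyl-CoA carboxylase, had 31.9, 31.7 and 31.1 normalized CPM in WT and 22.6, 22.6 and 22.6 in *Bdh2*-knockout ASCs (log2 fold change -0.48, standard error 0.06, edgeR adjusted p = 2.90e-05). *Pccb*, the beta subunit, had 33.1, 34.1 and 34.0 normalized CPM in WT and 41.0, 39.2 and 39.8 in knockout ASCs (log2 fold change 0.25, standard error 0.05, edgeR adjusted p = 0.00217). The ratio of *Pccb* to *Pcca* per length was 2.01 ± 0.0566 in WT and 3.33 ± 0.0768 in knockout ASCs (SD, n = 3), given as a description, since the pair was chosen for this difference. The next enzymes were called lower as well, *Mcee*, the epimerase, with a log2 fold change of -0.45 (edgeR adjusted p = 1.89e-04) and *Mut*, the mutase, with -0.31 (edgeR adjusted p = 0.00474). With the hepatocyte covariate *Mut* was no longer called (log2 fold change -0.22, edgeR adjusted p = 0.0598), and its WT libraries followed the order of the hepatocyte markers, with 70.0, 65.3 and 56.6 normalized CPM. *Hibch*, a hydrolase of valine breakdown, had a log2 fold change of -0.40 (edgeR adjusted p = 4.18e-04).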
